A study of Mus musculus with 6 samples.

Results

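The TREM family (triggering receptors expressed on myeloid cells) and its signalling adaptors were followed through 8 genes of the 57010 in the deposited count table. The genes were chosen by name: the receptor genes Trem1, Trem2, Trem3, Treml1, Treml2 and Treml4 and the adaptor genes Tyrobp (DAP12) and Hcst (DAP10). All 8 passed the filter on low counts and were among the 13303 genes tested. Rises of several of them were known when they were chosen, so their differences between groups are given as descriptions, without p-values. The samples were RAW 264.7 cells, an established mouse macrophage line, which had first been exposed to lipopolysaccharide (LPS), a bacterial cell wall component that drives inflammatory activation. After LPS, all 6 samples received extracellular vesicles (EVs) of tendon stem cells. In 3 samples the donor cells had been kept at normal oxygen (normoxic-EV), and in the other 3 they had been preconditioned in hypoxia (hypoxic-EV), and the question is how the oxygen history of the donors bears on the receiving macrophages. Macrophages without vesicles or without LPS were not analysed here. No dose, exposure time or donor species of the tendon stem cells is stated in the labels.

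TREM receptors are single-span membrane proteins with an immunoglobulin-like domain and, in most cases, a short tail that cannot signal alone. They pair in the membrane with DAP12, whose immunoreceptor tyrosine-based activation motif (ITAM) recruits the kinase Syk, and some also signal through DAP10, which recruits phosphoinositide 3-kinase and Grb2. TREM-1 is known as an amplifier of inflammatory responses to bacterial products in monocytes and neutrophils. TREM-2 binds lipids and apolipoproteins and is known for its part in phagocytosis and lipid handling by macrophages and microglia.

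Libraries held between 16751665 and 23422328 counts, and totals did not differ between groups beyond their spread (two-sided exact permutation p = 0.7, n = 3 per group, where 0.1 is the smallest p this design allows). Values are CPM, counts relative to the library total after scaling by the trimmed mean of M values (TMM), unless FPKM (fragments scaled by gene length and library total, the unit for comparing genes) is written. The labels do not say that samples came from separate cultures, so the spread between them may be technical. Of the macrophage markers, Cd68, Csf1r, Adgre1, Lyz2, Itgam, Ptprc, Spi1, Fcgr1 and Cd14 passed the filter on low counts, and Mertk, a receptor gene for the uptake of dying cells, had 11 counts in all 6 libraries. Of these 9 genes 2 rose and 6 fell at an edgeR adjusted p under 0.05, or 88.9% against 44.2% of all genes tested. The list summed to 10500 to 10900 CPM in normoxic-EV and 8490 to 8890 CPM in hypoxic-EV. Lyz2 made up most of both sums, at 7950 ± 208 and 6090 ± 176 CPM (SD, n = 3). The genes that rose were Csf1r, from 174 to 352 CPM, and Itgam, from 189 to 211 CPM, and Lyz2, Csf1r and Itgam were singled out after their values were seen.

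The 6 receptor genes lie in 1 cluster of 134 kb on chromosome 17 and are all read from the + strand. In GRCm39 coordinates, Trem1 spans 48539796 to 48553952, Trem3 48554805 to 48565869, Treml4 48571323 to 48582388, Treml2 48606526 to 48619561, Trem2 48653429 to 48661175 and Treml1 48666944 to 48674204. Counts cover whole genes, so exons and untranslated parts are not told apart in any value given here. The adaptor genes are neighbours on chromosome 7, where the 3′ ends of Tyrobp (30113185 to 30117010, + strand) and Hcst (30117137 to 30119279, - strand) face each other with 126 bases between them. Sequences upstream of 5 of the 8 genes were found in RefSeq's promoter table, which uses the build GRCm38.p6. Those of Trem1, Treml4 and Trem2 are shown because these receptor genes were higher together in hypoxic-EV. Each run gives the 250 bases before the annotated start, 5′ to 3′ on the gene's + strand, at chr17:48232489-48232738 (Trem1), chr17:48264045-48264294 (Treml4) and chr17:48346151-48346400 (Trem2) of GRCm38.p6. Capitals mark matches to GAGGAA, a core of sites of the macrophage factor PU.1, on either strand.
Trem1: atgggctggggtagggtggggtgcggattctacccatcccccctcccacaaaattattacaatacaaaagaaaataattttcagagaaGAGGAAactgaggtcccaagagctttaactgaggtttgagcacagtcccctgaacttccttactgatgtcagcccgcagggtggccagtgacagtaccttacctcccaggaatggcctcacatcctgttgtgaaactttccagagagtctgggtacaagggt
Treml4: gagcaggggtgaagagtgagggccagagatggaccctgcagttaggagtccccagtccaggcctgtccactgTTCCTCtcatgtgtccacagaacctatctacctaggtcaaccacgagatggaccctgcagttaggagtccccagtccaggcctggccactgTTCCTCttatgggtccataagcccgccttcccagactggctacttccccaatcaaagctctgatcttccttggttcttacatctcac
Trem2: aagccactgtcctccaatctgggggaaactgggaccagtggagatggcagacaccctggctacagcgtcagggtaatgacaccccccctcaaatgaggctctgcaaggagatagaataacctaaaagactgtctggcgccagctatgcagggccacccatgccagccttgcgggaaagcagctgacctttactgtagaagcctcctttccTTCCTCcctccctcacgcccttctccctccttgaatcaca
GAGGAA, without overlap with another motif, was found 1 time before Trem1 (at -162 from the start), 2 times before Treml4 (-178 and -87) and 1 time before Trem2 (-40), and it is present in 23.3% of 32851 promoter windows of the same length. It was not found in the windows before Treml1 and Hcst. ACGTG, 1 form of the core of the hypoxia response element, was found only before Treml1 among these 5 windows. It lies there in 1 palindrome, CACGTG, that matches on both strands, and it is present in 16.6% of all windows. The other form, GCGTG, was not searched, and its reverse complement CACGC can be read in the window shown for Trem2. TGACTCA, an AP-1 site, and the NF-kB consensus, which are present in 4.46% and 0.356% of all windows, were not found in any of the 5. All searches covered both strands. A match is a stretch of letters and not a measured site.

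Of the 8 genes, 4 receptor genes were called higher in hypoxic-EV and 0 genes were called lower, while the genes of the adaptors were not called. Trem1 and Treml4 were about 4-fold higher and Trem2 and Trem3 just over 2-fold higher. Calls are those of edgeR's quasi-likelihood test over all genes at an adjusted p under 0.05, a threshold that 44.2% of all tested genes passed, 22.7% as higher and 21.5% as lower. The groups did not overlap for the same 4 genes, against 52.8% of all tested genes. The median log2 fold change (LFC, hypoxic-EV over normoxic-EV) was 0.845 over the 8 genes and -0.00108 over all genes tested. The value for the 8 falls between the 4 genes called and the 4 not called, and it describes genes chosen with rises known. In bulk RNA, a change in the share of cells with a transcript and a change in its amount per cell cannot be told apart. In the authors' deposited table, where 195 genes are listed as higher, 0.837% of the genes with deposited normalized counts, the same 4 receptor genes are listed, with LFCs of 2.06 for Trem1, 2.14 for Treml4, 1.16 for Trem2 and 1.18 for Trem3.

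**Figure D1:**
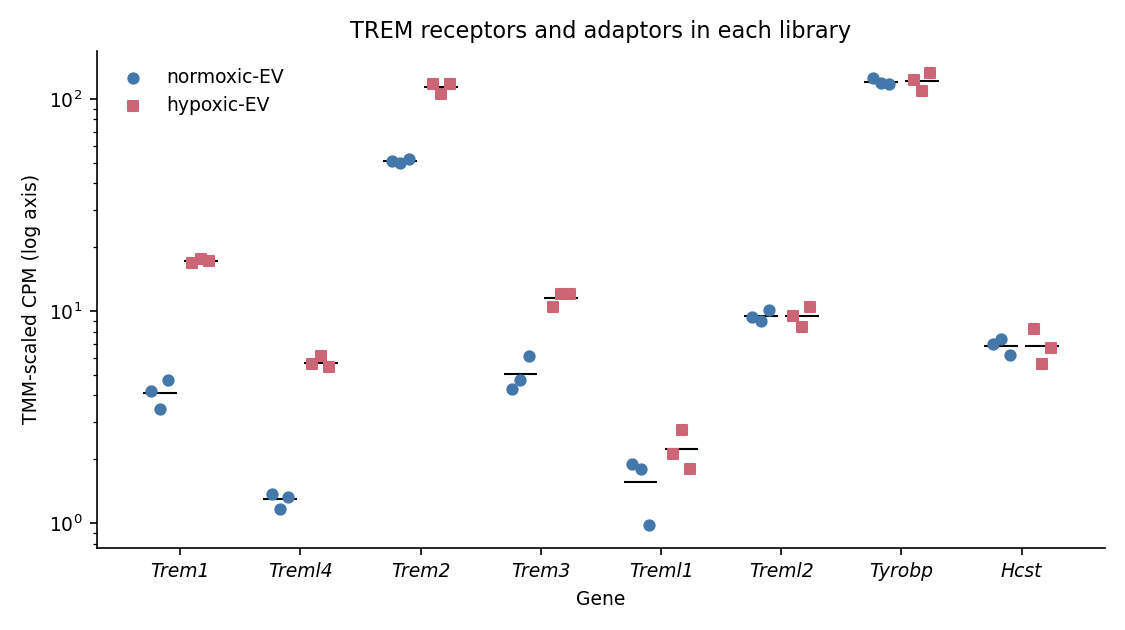
TMM-scaled CPM (log axis) of the 8 genes in the 3 normoxic-EV libraries (circles) and the 3 hypoxic-EV libraries (squares), with a bar at each mean. The hypoxic-EV points lie above all normoxic-EV points for Trem1, Treml4, Trem2 and Trem3, while those of Treml1, Treml2, Tyrobp and Hcst overlap.

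Trem1 (ENSMUSG00000042265), the gene of the inflammatory amplifier, stood at 4.19, 3.44 and 4.71 CPM in normoxic-EV replicates 1 to 3 and at 16.9, 17.6 and 17.3 CPM in hypoxic-EV replicates 1 to 3. The lowest hypoxic-EV library was thus far above the highest normoxic-EV library, and the hypoxic-EV libraries lay close together. The means were 4.11 ± 0.636 and 17.2 ± 0.341 CPM (SD, n = 3), an LFC of 2.05 (SE 0.118, 95% interval 1.81 to 2.30), or 4.15-fold. Of all tested genes, 16 (0.12%) had an LFC at least as high. The values rest on 235 counts in normoxic-EV and 1031 in hypoxic-EV. A processed pseudogene inside Trem1 on the other strand, Gm18679, had 4 counts in all libraries.

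Treml4 (ENSMUSG00000051682) encodes a DAP12-associated receptor that binds dead cells and is known from spleen macrophages and dendritic cells. It was the least abundant of the 8 genes per length in normoxic-EV and stood there at 1.38, 1.17 and 1.33 CPM, and reached 5.61, 6.13 and 5.42 CPM in hypoxic-EV. The groups were separated in every library, although the normoxic-EV libraries held only 73 counts together. The LFC was 2.14 (SE 0.179, 95% interval 1.76 to 2.51), or 4.39-fold, and 13 tested genes had one at least as high. The intervals of Treml4 and Trem1 overlapped over most of their length.

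Trem2 (ENSMUSG00000023992), the lipid-sensing receptor gene, was the most abundant of the 6 receptor genes per length. It stood at 51.2, 50 and 52.3 CPM in normoxic-EV and at 117, 106 and 118 CPM in hypoxic-EV. All hypoxic-EV libraries had more than all normoxic-EV libraries, with hypoxic-EV replicate 2 the lowest of its group. With 9714 counts in all, its LFC of 1.15 was the most precise of the receptor genes (SE 0.0552, 95% interval 1.04 to 1.27). Trem3 (ENSMUSG00000041754), which encodes a mouse receptor that pairs with DAP12 and is a pseudogene in humans, stood at 4.31, 4.73 and 6.13 CPM in normoxic-EV and 10.5, 12.0 and 12.0 CPM in hypoxic-EV. These groups did not overlap either, and normoxic-EV replicate 3 was the highest of its group. The LFC of Trem3 was 1.17 (SE 0.132, 95% interval 0.899 to 1.45), close to that of Trem2.

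Treml1 (ENSMUSG00000023993) and Treml2 (ENSMUSG00000071068) encode TREM-like receptors that are not known to need DAP12. TLT-1 is a platelet receptor with an inhibitory motif in its tail, and TLT-2 is found on macrophages, neutrophils and lymphocytes. Treml1 stood at 1.91, 1.81 and 0.978 CPM in normoxic-EV and 2.12, 2.76 and 1.81 CPM in hypoxic-EV. The groups overlapped, since hypoxic-EV replicate 3 was below normoxic-EV replicate 1. Its LFC of 0.536 (SE 0.26, 95% interval -0.0049 to 1.08) was not called and rested on 217 counts, and it ran from 0.246 without normoxic-EV replicate 3 to 0.71 without normoxic-EV replicate 1. Treml2 stood at 9.39, 8.99 and 10.1 CPM in normoxic-EV and 9.50, 8.42 and 10.4 CPM in hypoxic-EV, so that the groups covered the same range. Its LFC was -0.0119 (95% interval -0.246 to 0.223). That interval lay below the 1.04 to 1.27 of Trem2, and no difference between these genes was fitted.

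Tyrobp (ENSMUSG00000030579) encodes DAP12, the adaptor that pairs with TREM-1, TREM-2, TREM-3 and TREML4. It stood at 126, 119 and 117 CPM in normoxic-EV and 123, 109 and 132 CPM in hypoxic-EV. The hypoxic-EV libraries surrounded the normoxic-EV libraries, and the LFC was 0.0106 (SE 0.0602, 95% interval -0.115 to 0.136), a range of 0.924-fold to 1.1-fold. Hcst (ENSMUSG00000064109), encoding the adaptor DAP10, stood at 7.0, 7.42 and 6.22 CPM in normoxic-EV and 8.26, 5.61 and 6.71 CPM in hypoxic-EV. Its groups overlapped as well, with an LFC of -0.00466 (SE 0.143, 95% interval -0.302 to 0.293). Hypoxic-EV replicate 2 held the lowest value of all 6 libraries for Tyrobp, Hcst and Treml2, and without it the LFCs of Tyrobp and Hcst were 0.0843 and 0.117.

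**Figure D2:**
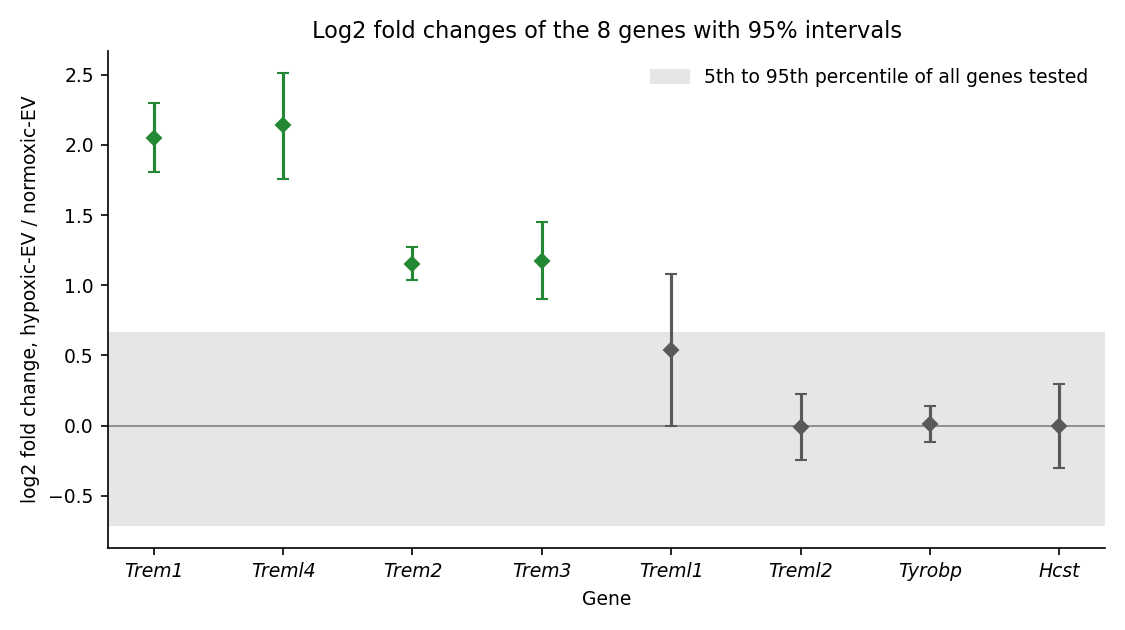
Log2 fold change of each gene, hypoxic-EV over normoxic-EV, with its 95% interval from the fit to 3 libraries per group; green marks genes called higher and grey genes not called. The shaded band spans the 5th to 95th percentile of all genes tested (-0.711 to 0.658): Trem1, Treml4, Trem2 and Trem3 lie above it and the other 4 within it.

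Compared per length, transcripts of the adaptor DAP12 exceeded those of every TREM receptor in each library. In normoxic-EV, Tyrobp had 181 ± 6.67 FPKM (SD, n = 3), followed by Trem2 at 10.3 ± 0.226, Hcst at 9.52 ± 0.843, Trem3 at 5.08 ± 0.966, Treml2 at 1.93 ± 0.117, Trem1 at 1.37 ± 0.211, Treml1 at 1.12 ± 0.365 and Treml4 at 0.646 ± 0.0535 FPKM. The ranges of Trem2 and Hcst overlapped in this group, as did those of Trem1 and Treml1, so their order was not resolved. In hypoxic-EV, the levels were 182 ± 18.0 FPKM for Tyrobp, 23.0 ± 1.46 for Trem2, 11.6 ± 0.772 for Trem3, 9.51 ± 1.94 for Hcst, 5.74 ± 0.0641 for Trem1, 2.86 ± 0.176 for Treml4, 1.92 ± 0.199 for Treml2 and 1.59 ± 0.339 FPKM for Treml1. Here the ranges of Trem3 and Hcst and those of Treml2 and Treml1 overlapped. Trem1 and Treml4 were thus below Treml2 in normoxic-EV and above it in hypoxic-EV, in every library.

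Trem1, Trem2, Trem3 and Treml4, the DAP12-pairing genes of the chosen set, were also set against Tyrobp within each library. They are the same 4 genes that were called higher, and no scaling between libraries can change the ratio. Their summed FPKM came to 8.88%, 9.34% and 10.8% of the Tyrobp FPKM in normoxic-EV replicates 1 to 3 and to 23.2%, 26.1% and 22.4% in hypoxic-EV replicates 1 to 3. The groups did not overlap, and the mean ratio was 2.47 times as high in hypoxic-EV (9.67 ± 1.0% against 23.9 ± 1.95%, SD, n = 3). With 4 genes called higher set over Tyrobp, which was not called, a higher ratio follows from the choice of genes and is no separate result. Trem2 supplied the largest share of the summed FPKM of all 6 receptors in each library, 50.5 ± 1.59% in normoxic-EV and 49.3 ± 2.51% in hypoxic-EV. The share of Trem1 was 6.68 ± 0.745% and 12.3 ± 0.361%, that of Treml4 3.16 ± 0.251% and 6.12 ± 0.482%, and that of Treml2 9.42 ± 0.136% and 4.09 ± 0.358%. Tyrobp had 19.1 ± 1.59 times the FPKM of Hcst in normoxic-EV and 19.5 ± 2.95 times in hypoxic-EV. These are ratios of transcripts and not of proteins at the surface. Other receptors that use DAP12 or DAP10 are left out of them. The 13 listed genes of such receptors summed to 821 to 833 CPM in normoxic-EV and 621 to 681 CPM in hypoxic-EV. Clec5a made up most of both sums, at 662 ± 10.5 and 434 ± 24.6 CPM (SD, n = 3), and of the 8 tested genes 3 rose and 4 fell.

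**Figure D3:**
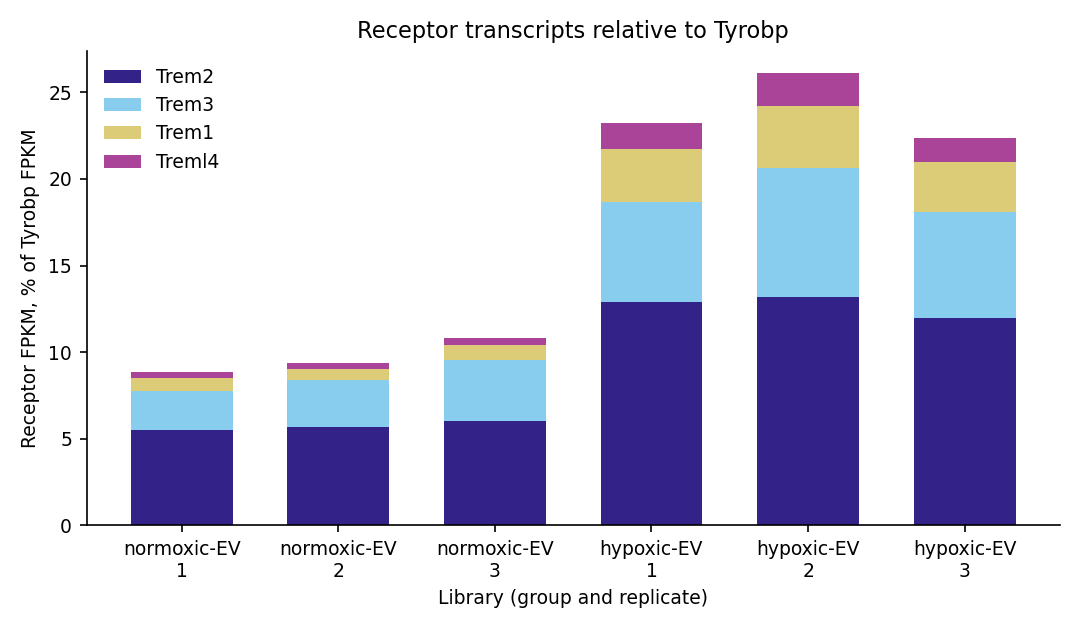
FPKM of Trem2, Trem3, Trem1 and Treml4, stacked, as a percentage of the Tyrobp FPKM of the same library, for the 3 libraries of each group. The stacks reach 8.88% to 10.8% in normoxic-EV and 22.4% to 26.1% in hypoxic-EV, and each of the 4 segments is larger in hypoxic-EV.

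Along the chromosome 17 cluster, 7 of the 8 annotated genes were tested and 5 of them were called higher, against 22.7% of all genes tested. Of these 5, 4 are receptor genes of the set chosen with rises known, so the count describes the choice. The fifth, B430306N03Rik, a protein-coding gene between Treml2 and Trem2 that is no member of the chosen set, stood at 1.97, 2.8 and 2.04 CPM in normoxic-EV and 8.73, 5.36 and 5.81 CPM in hypoxic-EV. Its groups did not overlap (LFC 1.54, SE 0.199, edgeR adjusted p = 2.12e-06). Genes called higher alternated with genes not called: Trem1, Trem3 and Treml4 at one end were followed by Treml2, then B430306N03Rik and Trem2, then Treml1. Beyond the cluster, Nfya, which encodes a subunit of a CCAAT-binding factor, rose by an LFC of 0.205 (SE 0.0478, edgeR adjusted p = 0.00145), and A530064D06Rik on the other side had 26 counts and was not tested. Next to Hcst, the NF-kB inhibitor gene Nfkbid rose from 11.9 ± 1.41 to 16.4 ± 1.87 CPM (SD, n = 3, LFC 0.449, edgeR adjusted p = 0.00167), and Lrfn3, before Tyrobp, stood at 5.60 ± 0.335 and 4.57 ± 1.32 CPM (edgeR adjusted p = 0.199). Of all stretches of 50 bases in the annotated transcripts of the 8 genes, 0 were shared with a transcript of another gene, from 0 of 666 in Tyrobp to 0 of 4989 in Trem2 (GENCODE vM21).

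**Figure D4:**
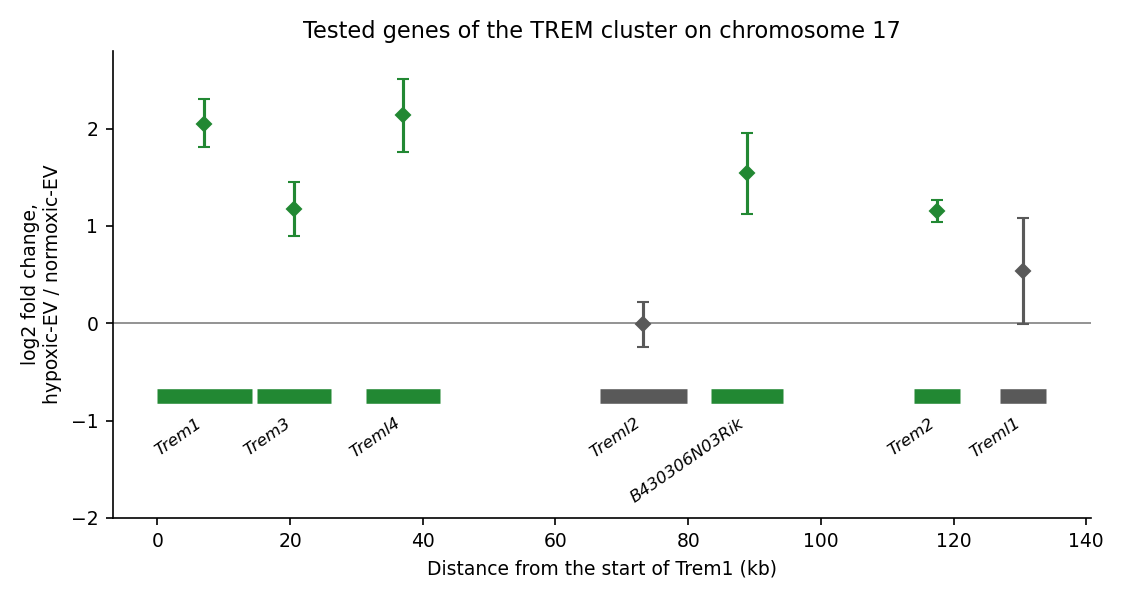
Log2 fold change with 95% interval of the 7 tested genes of the chromosome 17 cluster, placed by distance in kb from the start of Trem1, with the span of each gene drawn below; green marks genes called higher and grey genes not called. Treml2 and Treml1 (grey) lie among 5 genes called higher, of which 4 belong to the set chosen with rises known.

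For each of the 8 genes the most similar expression patterns were sought by the root mean square distance of log2 CPM over the 6 libraries of both groups, each gene centred on its own mean. The closest gene to Trem1 was Treml4, at 0.0911 log2 units, followed by Igf1, the growth factor gene, at 0.122 and Pmepa1, a TGF-beta target gene, at 0.15. The closest to Treml4 were Igf1 at 0.0803, Trem1 at 0.0911 and Pmepa1 at 0.0945. Trem2 was closest to the organic anion transporter gene Abcc3 at 0.0322, to Siglec1, which encodes a sialic acid-binding macrophage receptor, at 0.0593 and to Smad3, which encodes a transducer of TGF-beta signals, at 0.0619. Trem3 was closest to Dgkg, a diacylglycerol kinase gene, at 0.0574, Depdc1b at 0.088 and mt-Tl1, a mitochondrial leucine tRNA gene, at 0.0891. Dgkg stood at only 0.296 ± 0.0582 and 0.818 ± 0.0503 CPM (SD, n = 3), with an LFC of 1.42 (SE 0.377), so its place is uncertain. Trem3 and Trem2 lay 0.169 apart, whereas Trem2 and Trem1 lay 0.466 apart. Tyrobp was closest to Rdh13 at 0.0117, Ndufb6 at 0.0201 and Rpl18 at 0.0218, Hcst to Rhbdf1, Map1s and Mst1 at 0.0387 to 0.0515, and Treml2 to Slc7a5, Fiz1 and Phc2 at 0.0339 to 0.0377. Treml1 was closest to ENSMUSG00000121226 at 0.104, Mxd3 at 0.138 and AI506816 at 0.142. Mst1 and Mxd3 overlap Rnf123 and Prelid1 on the other strand, which had 621% and 10200% of their counts, so these neighbours are uncertain. These distances are descriptions of 6 libraries that share 1 contrast.

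The signalling genes behind DAP12 and DAP10 changed in both directions. Of 31 tested genes of this list, 10 rose and 8 fell (median LFC -0.0208), or 58.1% called against the 44.2% of all genes. Syk, the kinase recruited by the DAP12 ITAM, fell from 157 ± 9.32 to 112 ± 4.42 CPM (SD, n = 3, LFC -0.483, SE 0.0524, edgeR adjusted p = 1.9e-07). Lcp2, encoding the scaffold SLP-76, fell by 0.373 on the log2 scale (edgeR adjusted p = 1.26e-06). Plcg2, encoding the phospholipase downstream of Syk, rose from 127 ± 2.09 to 172 ± 2.60 CPM (LFC 0.439, SE 0.0455, edgeR adjusted p = 9.82e-08), and Fgr, a Src-family kinase gene, rose from 9.69 ± 0.377 to 16.7 ± 0.0821 CPM (LFC 0.785, edgeR adjusted p = 6.11e-07). Grb2, encoding an adaptor that DAP10 binds, stood at 186 ± 6.02 and 174 ± 6.27 CPM (edgeR adjusted p = 0.1). Among 21 tested genes that restrain ITAM signals, 5 rose and 8 fell (median 0.0039), or 61.9% called against the 44.2% of all genes. Inpp5d, encoding the lipid phosphatase SHIP1 that binds DAP12, rose from 119 ± 4.99 to 165 ± 2.27 CPM (SD, n = 3, LFC 0.471, edgeR adjusted p = 7.2e-08), whereas the phosphatase gene Ptpn22 fell by 0.809 (edgeR adjusted p = 1.65e-11) and Sirpa, an inhibitory receptor gene, by 0.607 on the log2 scale (edgeR adjusted p = 1.64e-09). Pilra, another inhibitory receptor gene, had an LFC of -1.04 (edgeR adjusted p = 1.65e-09), but 20.8% of its 50-base stretches occur in transcripts of other genes, and Zcwpw1 overlaps it on the other strand with 20% of its counts. Cbl, a ubiquitin ligase gene, was not called, at 168 ± 12.9 and 169 ± 1.63 CPM (edgeR adjusted p = 0.963).

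Other receptors that use the same adaptors did not share 1 direction. Of 13 listed genes 8 were tested, of which 3 rose and 4 fell (median LFC -0.45). That is 87.5% called, against 44.2% of all genes tested. With no filter on low counts, 12 were tested, 4 rose and 4 fell, and the median turned to 0.58. Cd33, a sialic acid-binding receptor gene, rose from 62.6 ± 4.07 to 121 ± 5.61 CPM (SD, n = 3, LFC 0.949, SE 0.0563, edgeR adjusted p = 1.92e-11), and Cd300lb, a lipid-binding receptor gene, rose by 0.398 on the log2 scale (edgeR adjusted p = 1.45e-05). Clec5a, a DAP12-paired lectin gene, fell from 662 ± 10.5 to 434 ± 24.6 CPM (LFC -0.608, SE 0.0482, edgeR adjusted p = 1.8e-09), and Cd200r4 fell by 0.933 on the log2 scale (edgeR adjusted p = 1.06e-08). Cd300e stood at 9.48 ± 0.97 and 7.75 ± 0.655 CPM (edgeR adjusted p = 0.052). Klrk1, encoding NKG2D, the receptor of DAP10 in lymphocytes, had a count of 0 throughout, for which the upper limit is 0.129 to 0.179 CPM, depending on the library. Fcer1g, encoding the other ITAM adaptor of macrophages, fell from 182 ± 10.6 to 117 ± 5.87 CPM (SD, n = 3, LFC -0.643, SE 0.0532, edgeR adjusted p = 3.41e-09). That LFC lay outside the 95% interval of Tyrobp, whose lower bound was -0.115, and no difference between these genes was fitted. In the list of other ITAM adaptors and their receptors, 6 of 7 tested genes fell and 1 rose (median -0.546). All 7 were called, against 44.2% of all genes tested. Those that fell included the lectin gene Clec4e (Mincle) at -0.972 (edgeR adjusted p = 2.9e-12). The Fc receptor genes Fcgr1 and Fcgr4 fell to LFCs of -0.718 (edgeR adjusted p = 5.21e-10) and -0.546 (edgeR adjusted p = 4.77e-06). The gene that rose, named after its values were seen, was Clec4n (Dectin-2), from 4.58 ± 0.592 to 7.0 ± 0.371 CPM (n = 3, edgeR adjusted p = 0.000919).

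**Figure D5:**
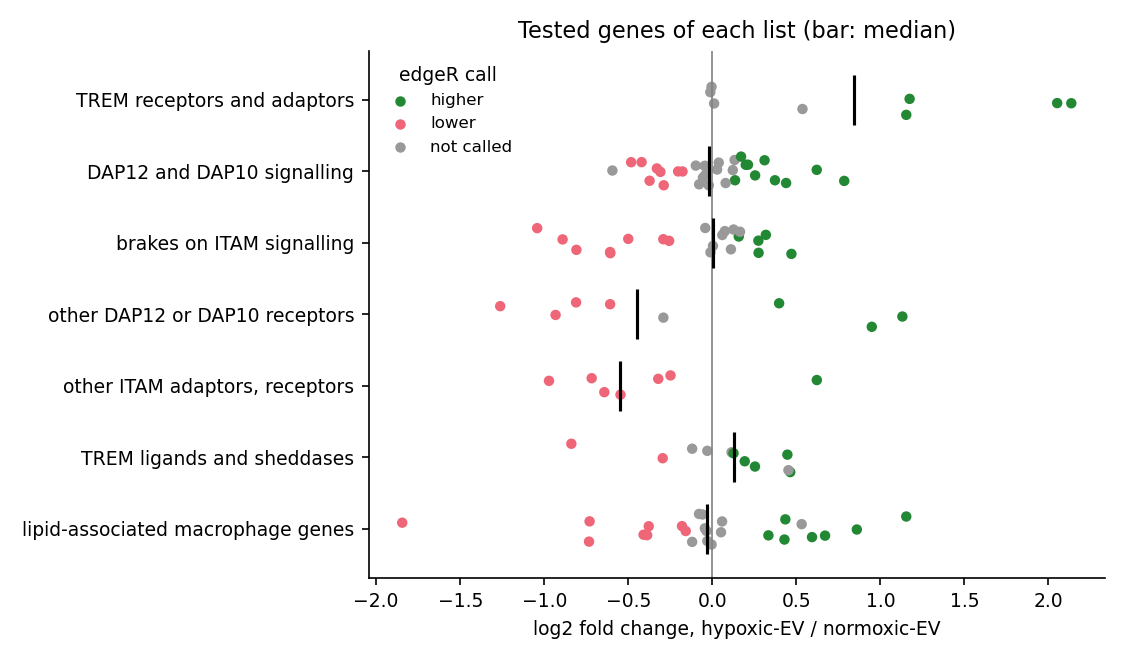
Log2 fold changes, hypoxic-EV over normoxic-EV, of the tested genes of each list (1 point per gene, vertical jitter only), coloured by edgeR's call, with a bar at the median. The TREM set, chosen with rises of several members known, has no gene called lower and a median of 0.845. The medians of the other lists run from -0.546 to 0.126, and no difference between lists was tested.

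Of 11 tested genes for ligands, partners and sheddases of TREM receptors, 5 rose and 2 fell (median LFC 0.126). This was 63.6% called, against 44.2% of all genes tested. Hmgb1, whose protein is a candidate TREM-1 ligand, rose from 111 ± 1.32 to 151 ± 11.3 CPM (SD, n = 3, LFC 0.447, edgeR adjusted p = 7.05e-07), though 22.7% of its 50-base stretches occur in other transcripts and Uspl1 overlaps it on the other strand with 38.0% of its counts. Clu, encoding clusterin, a TREM-2 ligand, rose from 23.9 ± 2.12 to 32.9 ± 0.716 CPM (LFC 0.464, edgeR adjusted p = 3.19e-05). Adam10, encoding a protease that sheds TREM-2, rose by 0.254 on the log2 scale (edgeR adjusted p = 0.000508), and Plxna1, encoding a plexin that associates with TREM-2 and DAP12, fell by 0.839 on the log2 scale (edgeR adjusted p = 5.68e-10). Lgals3, encoding galectin 3, stood at 631 ± 34.9 and 618 ± 11.8 CPM (edgeR adjusted p = 0.649). Pglyrp1, encoding a peptidoglycan-binding TREM-1 ligand, had 9 counts in all libraries and was not tested.

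Genes of lipid-associated macrophages, a state in which Trem2 is a marker and a regulator, were divided. Of 25 tested genes, Trem2 among them, 7 rose and 8 fell (median LFC -0.0345), or 60% called against 44.2% of all genes tested. Without Trem2, 6 of 24 rose, while 22.7% of all genes tested were called higher. Lipa, the lysosomal acid lipase gene, rose from 206 ± 2.94 to 328 ± 14.2 CPM (SD, n = 3, LFC 0.671, edgeR adjusted p = 2.19e-10). Csf1, encoding the growth factor M-CSF, fell from 46.0 ± 4.94 to 12.7 ± 1.81 CPM (LFC -1.84, SE 0.0959, edgeR adjusted p = 2.44e-12). Spp1, encoding osteopontin, fell by 0.733 (edgeR adjusted p = 6.22e-11) and Ctsd, the cathepsin D gene, by 0.730 on the log2 scale (edgeR adjusted p = 1.46e-09), although 11.6% of the 50-base stretches of Spp1 and 32.4% of those of Ctsd occur in transcripts of other annotated genes. Gpnmb, encoding a membrane glycoprotein of lipid-laden macrophages, stood at 3210 ± 196 and 3140 ± 112 CPM (edgeR adjusted p = 0.618).

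Markers of other cells that carry TREM receptors differed in level from gene to gene. Of 8 platelet and megakaryocyte genes, the setting in which TLT-1 is best known, 3 passed the filter on low counts. Itga2b, encoding an integrin subunit of platelets, fell from 4.25 ± 0.453 to 1.7 ± 0.344 CPM (SD, n = 3, LFC -1.33, edgeR adjusted p = 8.97e-06), and Gp1ba, a von Willebrand factor receptor gene, fell from 2.86 ± 0.369 to 2.05 ± 0.331 CPM (LFC -0.50, edgeR adjusted p = 0.0466). Pf4, which encodes a platelet chemokine, was not called, at 0.951 ± 0.0641 and 1.22 ± 0.233 CPM (edgeR adjusted p = 0.345). Gp1bb and Gp6 had 0 counts in each library, and the list summed to 7.60 to 9.02 CPM in normoxic-EV and 4.19 to 6.08 CPM in hypoxic-EV. Of 10 neutrophil genes, only S100a8, an alarmin gene that inflammatory macrophages also express, passed the filter on low counts, and it fell from 249 ± 17.7 to 110 ± 12.4 CPM (SD, n = 3, edgeR adjusted p = 8.91e-12). The neutrophil list summed to 238 to 270 CPM in normoxic-EV and 97.0 to 120 CPM in hypoxic-EV, nearly all of it S100a8. Elane and Ltf had 0 counts in each library, and the other neutrophil genes had at most 40 counts in all 6 libraries, with higher means in hypoxic-EV for some (Prtn3, 0.123 ± 0.00884 and 0.275 ± 0.0715 CPM) and lower for others (Camp, 0.3 ± 0.185 and 0.174 ± 0.111 CPM). The dendritic cell list summed to 2.39 to 3.59 and 3.23 to 3.78 CPM, and the natural killer and T cell list to at most 0.473 CPM in any library, with Ncr1, Cd3e and Cd8a at 0. Stromal and tendon markers summed to 1.20 to 2.39 CPM in normoxic-EV and 0.99 to 1.59 CPM in hypoxic-EV, with Col1a2, Col3a1, Tnmd and Thy1 at 0. Itga2b, Gp1ba, Pf4, S100a8, Prtn3 and Camp were named after their values were seen, and they were not refitted under the alternatives. The part of these markers in the differences of the TREM genes was not tested.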

How the data were processed

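Poly(A) RNA of 6 samples was sequenced from both ends on an Illumina HiSeq, per the labels' protocols. HISAT2, featureCounts, DESeq2 and the build GRCm39 are named, with no versions, in the submitters' processing notes, and no source used here gives the strand setting or the treatment of multi-mapping reads. The authors deposited raw counts for 57010 genes, FPKM values (which equal count divided by library total and 1 length per gene), normalized counts (a signal, each deposited count over its library's size factor) and a table of 462 genes with log2 fold changes, a test score, p-values and adjusted p-values. In that table of the authors, the smallest absolute log2 fold change was 1.001 and the largest adjusted p 0.0491.

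Samples were grouped by their treatment label. Counts were filtered by filterByExpr (minimum count 10, minimum total 15), scaled by TMM and tested with edgeR 4.0.16 (R 4.3.3, glmQLFTest, two-sided, Benjamini-Hochberg over 13303 genes, called at an adjusted p under 0.05). The SE is the absolute log2 fold change divided by the square root of F, and 95% intervals use the fit's degrees of freedom. Alternatives were DESeq2 1.42.0, limma-voom 3.58.1, 3 other scalings, no filter, a replicate block and leaving out each library. The fit was tested on simulated data.

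The 8 genes and the gene lists were chosen with earlier results of these data known. From each list the 4 called genes of lowest p outside the 8 and the uncalled gene of highest mean CPM were named, with the 3 genes of most similar pattern for each of the 8 (log2 CPM with a prior count of 2) and the genes beside them on the chromosome. Libraries of a group differed by a chi-square of 2.72 to 5.84 per degree of freedom, more than counting noise, and each was counted as 1 sample. Where a gene had a count of 0, the upper limit of 3 counts corresponds to 0.129 to 0.179 CPM, for counting error only, since the labels name no molecular identifiers.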

Additional observations from a re-analysis of the deposited data

How the results depend on the processing

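Trem1, Trem2, Trem3 and Treml4 were called higher, and Treml1, Treml2, Tyrobp and Hcst were not called, under each of 13 alternatives. The log2 fold change ran from 1.94 to 2.17 for Trem1, 2.07 to 2.18 for Treml4, 1.13 to 1.20 for Trem2 and 1.07 to 1.35 for Trem3, and from -0.0597 to 0.0843 for Tyrobp. The count of all called genes, 5877, ran from 5121 (DESeq2) to 5866 over the other tests, scalings and filters and from 4988 to 5766 without each replicate in turn, and each list's count stayed within 1.5 times its own. With no filter on low counts, the median of the other receptors that pair with DAP12 or DAP10 was 0.58 in place of -0.45, because genes of few counts then enter it. Over refits of 61 named genes, 786 values kept their direction and side of the threshold or stayed uncalled, and 7 newly passed it: Cd300e with DESeq2 size factors (adjusted p = 0.0491), without hypoxic-EV replicate 2 and without normoxic-EV replicate 2, within a range of 0.0367 to 0.224, Mxd3 under 3 alternatives and ENSMUSG00000121226 under 1. The summed FPKM of Trem1, Trem2, Trem3 and Treml4 as a percentage of Tyrobp differed by 14.2 points between groups, and by 13.1 to 15 without each library. The direction of this difference follows from the choice of genes. Samples that share a replicate number did not deviate together (correlations of -0.0156, -0.0177 and -0.0175). Pairs with unlike numbers ran from -0.0377 to 0.0536. The labels do not say whether a number stands for a shared batch or culture. With the replicate block, 5662 genes and the same 4 of the 8 TREM genes were called. Depth limits Treml1 most, with 217 counts, and 5 listed receptors and 4 listed ligands or partners were too low to test.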
